A study of Homo sapiens with 12 samples.

Results

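Of 10333 genes tested, 10 were studied here because interferon gamma (IFNγ) shifted their mRNA one way in BRG1-deficient cells and the other way in cells given BRG1. They are CHRNB1, SIGIRR, RGS4, KCNJ2, GLRX2, MEGF9 and RAB15, which were higher with IFNγ in cells without BRG1 and lower with IFNγ in cells with it, and FOXO3, METTL14 and SCAPER, which ran the other way. All 10 were on the array, which names 18665 gene symbols, and all 10 were above background on all 12 arrays. The genes were chosen by their measured IFNγ responses, so these responses and the difference between them are given as a description, without a test. All cells were SW-13, an adrenal carcinoma cell line without BRG1 protein. They carried an adenovirus for GFP alone (Ad-GFP) or for BRG1 fused to GFP (Ad-BRG1), and received either no treatment or 6 h of IFNγ. This gave 4 groups: untreated Ad-GFP cells, Ad-GFP cells with IFNγ, untreated Ad-BRG1 cells and Ad-BRG1 cells with IFNγ. Each group had 3 arrays, biological replicates according to the methods of the study. All 4 groups share the 1 cell line and an adenovirus carrying GFP, the BRG1 virus had been titrated to the BRG1 protein level of HeLa cells, and the share of cells that took up virus was not measured here.

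BRG1, encoded by SMARCA4, is an ATPase of the SWI/SNF complex, which uses ATP to move or evict nucleosomes and so changes which regulatory DNA is open. IFNγ binds its receptor and activates the JAK kinases, and GAS elements are short DNA motifs found in the promoters of target genes such as IRF1, a transcription factor induced early by IFNγ. Many interferon targets need SWI/SNF for full induction, whereas the 10 genes described here belong to other families: membrane receptors and channels, signalling inhibitors, a redox enzyme, a trafficking GTPase, a forkhead factor, an RNA methylation cofactor and a cyclin A-binding protein.

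The 250 bases before the transcription start are shown for CHRNB1, which had the largest response, RGS4, whose 4 groups did not overlap, FOXO3, one of the 3 genes that were lower with IFNγ in Ad-GFP cells, and IRF1 as a known IFNγ target for comparison. The sequences are those of RefSeq on GRCh38.p14, 5′ to 3′ on the gene's strand, at chr17:7444811-7445060 (plus strand), chr1:163068621-163068870 (plus), chr6:108559575-108559824 (plus) and chr5:132490774-132491023 (minus). Capitals mark a GAS motif.
CHRNB1: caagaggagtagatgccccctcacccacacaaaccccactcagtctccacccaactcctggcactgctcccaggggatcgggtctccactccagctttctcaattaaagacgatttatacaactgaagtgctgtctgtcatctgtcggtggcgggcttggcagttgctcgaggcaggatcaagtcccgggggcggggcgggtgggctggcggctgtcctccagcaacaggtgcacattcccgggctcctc
RGS4: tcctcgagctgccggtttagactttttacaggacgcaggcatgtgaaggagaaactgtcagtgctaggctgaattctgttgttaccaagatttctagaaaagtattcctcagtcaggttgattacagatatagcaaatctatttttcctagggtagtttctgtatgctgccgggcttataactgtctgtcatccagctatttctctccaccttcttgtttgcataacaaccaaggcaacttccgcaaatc
FOXO3: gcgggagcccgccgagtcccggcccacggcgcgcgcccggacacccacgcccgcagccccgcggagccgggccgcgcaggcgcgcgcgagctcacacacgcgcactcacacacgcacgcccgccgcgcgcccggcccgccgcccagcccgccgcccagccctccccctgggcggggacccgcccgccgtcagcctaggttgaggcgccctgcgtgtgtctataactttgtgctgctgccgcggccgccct
IRF1: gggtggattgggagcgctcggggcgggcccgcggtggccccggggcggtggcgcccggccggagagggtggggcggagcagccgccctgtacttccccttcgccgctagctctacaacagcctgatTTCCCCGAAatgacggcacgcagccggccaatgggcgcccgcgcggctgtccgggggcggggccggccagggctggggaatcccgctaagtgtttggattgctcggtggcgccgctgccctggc
The GAS motif was searched as TTCNNNGAA, which reads the same on both strands, and the interferon-stimulated response element as GAAA, any 2 bases and GAAA, or as its reverse complement of TTTC, any 2 bases and TTTC. Each motif was counted on its own, overlaps with the other included. RefSeq promoters were at hand for 9 of the 10 genes, RAB15 being the one not matched. None of the 9 windows held either motif (0 of 9 for each), while the IRF1 window held a GAS motif that begins 124 bases before the start. Of 8506 promoters of tested genes, 5.64% held a GAS motif and 2.39% a response element. In base composition the 9 promoters were unlike one another: GC content ran from 31.2% in GLRX2 to 80.4% in FOXO3, with a median of 69.2% against 64.8% over the promoters of tested genes.

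RNA was read on Illumina Human-WG6 BeadChips, where a probe's brightness reports the relative level of an mRNA; fewer cells with an mRNA and less of it per cell cannot be told apart. Values are log2 intensities after background correction and quantile normalization, and a difference of 1 on this scale is a doubling. Mean raw intensity lay between 539.9 and 666, and an array had 15741 to 16828 probes above background. Within a group, arrays had an r of 0.994 to 0.998 across genes, which are not independent replicates. IRF1 followed the IFNγ labels, with means of 7.95 and 8.52 in untreated Ad-GFP and Ad-BRG1 cells and 13.16 and 13.76 with IFNγ. The SMARCA4 probe read 8.51 to 8.70 in all 4 group means, and since its place relative to the viral cDNA is not known here, it does not check the virus labels. Of the listed adrenocortical markers on the array, SCARB1 and FDX1 (2 of 9) were above background on all 12 arrays. CYP11A1 was above background on 7 arrays, CYP21A2 on 1, and NR5A1, STAR, CYP17A1, HSD3B2 and MC2R on none.

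Across all genes, limma called (adjusted p under 0.05) 421 genes in the IFNγ response of Ad-GFP cells, 4.07% of those tested, and 3379 in the response of Ad-BRG1 cells, 32.7%. In all, 289 genes were called in both, of which 276 moved in the same direction and 13 in opposite directions, 0.126% of the genes tested. The 10 genes are 10 of these 13. Both responses of a gene come from different arrays but share 1 estimate of the spread, and nothing is read from the number 10, which the choice fixed. In size the responses of the 10 genes ran from 0.27 to 1.25 in Ad-GFP cells and from 0.25 to 0.62 in Ad-BRG1 cells, each with a standard error (SE) between 0.06 and 0.11. The treated and untreated arrays did not overlap for any of the 10 genes in either virus, a separation that the choice favours. Over all genes 28.1% did not overlap in Ad-GFP cells and 42.9% in Ad-BRG1 cells.

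**Figure D1:**
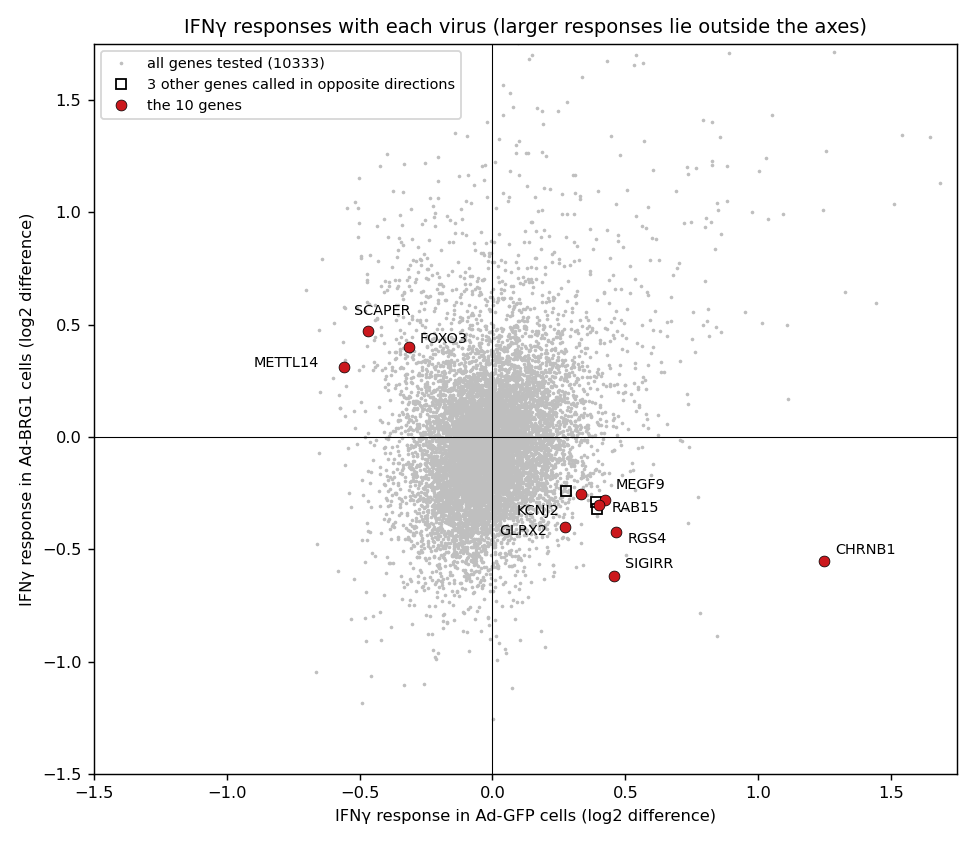
IFNγ response in Ad-GFP cells (x axis) against that in Ad-BRG1 cells (y axis), both as log2 difference, for the 10333 genes tested (grey), the 10 genes (red) and the 3 other genes called in opposite directions (squares). CHRNB1 lies far to the right at 1.25 and -0.55, while the other 9 genes lie within 0.62 of 0 on both axes; strongly induced interferon targets fall outside the axes.

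Among the membrane proteins, CHRNB1 (gene ID 1140), the beta 1 subunit of the muscle nicotinic acetylcholine receptor, had the widest separation. In Ad-GFP cells its log2 intensity was 6.98, 7.11 and 6.78 untreated and 8.15, 8.28 and 8.18 with IFNγ. With BRG1 it was 6.74, 6.44 and 6.36 untreated and 5.96, 5.94 and 5.98 with IFNγ. Every IFNγ-treated Ad-GFP array was thus far above the others, and the 3 IFNγ-treated Ad-BRG1 arrays were the lowest of the 12 and lay within 0.04 of one another. With IFNγ the CHRNB1 level was 2.38-fold higher in Ad-GFP cells (1.25 on the log2 scale, SE 0.10, 3 against 3 arrays) and 1.47-fold lower in Ad-BRG1 cells (-0.55, SE 0.10). The 4 groups of CHRNB1 ranked as Ad-GFP with IFNγ, Ad-GFP untreated, Ad-BRG1 untreated and Ad-BRG1 with IFNγ, and no neighbours overlapped.

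KCNJ2 (gene ID 3759) encodes the inward rectifier potassium channel Kir2.1, which sets the resting membrane potential. Its arrays read 8.45, 8.44 and 8.42 in untreated and 8.71, 8.75 and 8.86 in IFNγ-treated Ad-GFP cells. In Ad-BRG1 cells they read 8.38, 8.41 and 8.40 untreated and 8.14, 8.19 and 8.09 with IFNγ. The 2 untreated groups lay side by side, with group means 0.04 apart, and the IFNγ-treated groups lay above and below them. The KCNJ2 response was 0.33 (1.26-fold, SE 0.06) in Ad-GFP cells and -0.25 (1.19-fold lower, SE 0.06) in Ad-BRG1 cells.

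MEGF9 (gene ID 1955), a transmembrane protein with EGF-like domains, was lower in both Ad-BRG1 groups than in both Ad-GFP groups. Its values were 7.43, 7.41 and 7.46 in untreated and 7.87, 7.94 and 7.75 in IFNγ-treated Ad-GFP cells. In Ad-BRG1 cells they were 6.54, 6.49 and 6.83 untreated and 6.49, 6.31 and 6.22 with IFNγ. The 2 Ad-GFP groups were well apart, but the 2 Ad-BRG1 groups nearly met, the lowest untreated array being above the highest treated one by only 0.0031. The MEGF9 response was 0.42 (1.34-fold, SE 0.10) in Ad-GFP cells and -0.28 (1.21-fold lower, SE 0.10) in Ad-BRG1 cells, and in the authors' average-normalized values the Ad-BRG1 groups of MEGF9 overlapped. Without replicate 3 of untreated Ad-BRG1 cells the Ad-BRG1 response of MEGF9 was -0.18, and without background correction it was -0.12. The MEGF9 probe was not far above background in Ad-BRG1 cells, with a detection p of 0.0158 on its weakest array.

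Among the inhibitors of signalling, SIGIRR (gene ID 59307) is a receptor-like protein that damps IL-1 receptor and Toll-like receptor signalling. Its arrays read 5.70, 5.80 and 5.83 in untreated and 6.19, 6.34 and 6.18 in IFNγ-treated Ad-GFP cells. In Ad-BRG1 cells they read 6.26, 6.15 and 6.30 untreated and 5.78, 5.46 and 5.61 with IFNγ. The high groups were Ad-GFP with IFNγ and Ad-BRG1 without it, which overlapped, and the low groups were Ad-GFP without IFNγ and Ad-BRG1 with it, which overlapped as well. The SIGIRR response was 0.46 (1.37-fold, SE 0.09) with Ad-GFP and -0.62 (1.53-fold lower, SE 0.09) with Ad-BRG1. The SIGIRR probe was close to background, with a detection p of 0.0448 on its weakest array.

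RGS4 (gene ID 5999) speeds GTP hydrolysis on G protein alpha subunits and so shortens signals from G protein-coupled receptors. It read 8.67, 8.48 and 8.53 in untreated and 9.03, 8.98 and 9.09 in IFNγ-treated Ad-GFP cells. With BRG1 it read 8.31, 8.24 and 8.29 untreated and 7.80, 7.97 and 7.81 with IFNγ. As for CHRNB1, Ad-GFP cells with IFNγ were highest and Ad-BRG1 cells with IFNγ lowest, and none of the 4 groups overlapped. The RGS4 response was 0.47 (1.38-fold, SE 0.07) in Ad-GFP cells and -0.42 (1.34-fold lower, SE 0.07) in Ad-BRG1 cells.

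GLRX2 (gene ID 51022) is a glutaredoxin of mitochondria that reduces protein-glutathione mixed disulfides. Its brightest probe read 10.23, 10.27 and 10.26 in untreated and 10.54, 10.56 and 10.47 in IFNγ-treated Ad-GFP cells. On the Ad-BRG1 arrays it read 10.15, 10.28 and 10.27 untreated and 9.94, 9.75 and 9.79 with IFNγ. The untreated groups of the 2 viruses overlapped, and the treated groups lay on either side of them. The GLRX2 response was 0.27 (1.21-fold, SE 0.07) in Ad-GFP cells and -0.40 (1.32-fold lower, SE 0.07) in Ad-BRG1 cells, the former being the smallest Ad-GFP response of the 10.

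RAB15 (gene ID 376267), a small GTPase of endosomal recycling, was lowest in untreated Ad-GFP cells. It read 6.93, 6.96 and 6.77 there and 7.20, 7.34 and 7.31 in Ad-GFP cells with IFNγ. The Ad-BRG1 arrays gave 7.75, 7.63 and 7.56 untreated and 7.46, 7.34 and 7.23 with IFNγ. IFNγ thus left the 2 viruses at overlapping RAB15 levels, whereas the untreated groups were apart. The RAB15 response was 0.40 (1.32-fold, SE 0.08) in Ad-GFP cells and -0.30 (1.23-fold lower, SE 0.08) in Ad-BRG1 cells.

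FOXO3 (gene ID 2309) is a forkhead transcription factor that AKT keeps out of the nucleus and that acts on stress resistance, metabolism and apoptosis genes. It read 9.26, 9.33 and 9.28 in untreated and 9.08, 9.02 and 8.84 in IFNγ-treated Ad-GFP cells. In the cells with BRG1 it read 9.995, 10.06 and 9.95 untreated and 10.26, 10.45 and 10.50 with IFNγ. All 6 Ad-BRG1 arrays were above all 6 Ad-GFP arrays, and IFNγ moved the viruses further apart. The FOXO3 response was -0.31 (1.24-fold lower, SE 0.08) in Ad-GFP cells and 0.40 (1.32-fold higher, SE 0.08) in Ad-BRG1 cells.

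METTL14 (gene ID 57721) is the RNA-binding partner of METTL3 in the complex that methylates adenosine in mRNA to m6A. It read 6.08, 6.11 and 6.28 in untreated and 5.87, 5.52 and 5.41 in IFNγ-treated Ad-GFP cells. With Ad-BRG1 the values were 5.77, 5.69 and 5.75 untreated and 5.94, 6.01 and 6.20 with IFNγ. Untreated Ad-GFP and IFNγ-treated Ad-BRG1 arrays overlapped at the top, and the other 2 groups overlapped at the bottom. The METTL14 response was -0.56 (1.47-fold lower, SE 0.11) in Ad-GFP cells and 0.31 (1.24-fold higher, SE 0.11) in Ad-BRG1 cells. The METTL14 probe was close to background, with a detection p of 0.0487 on its weakest array. In raw intensity, before any scaling between arrays, its Ad-BRG1 arrays overlapped. They read 180.2, 168.7 and 171.7 untreated and 168.7, 173.3 and 176.6 with IFNγ. The METTL14 rise in Ad-BRG1 cells thus appeared only after normalization between arrays, and without background correction it was 0.12.

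SCAPER (gene ID 49855), a protein of the endoplasmic reticulum that binds cyclin A, had the same order of groups in pairs. It read 6.54, 6.77 and 6.53 in untreated and 6.24, 6.18 and 6.02 in IFNγ-treated Ad-GFP cells. With the BRG1 virus it read 6.09, 6.42 and 6.12 untreated and 6.49, 6.75 and 6.80 with IFNγ. The 2 high groups overlapped each other, as did the 2 low groups, and in Ad-BRG1 cells the treated and untreated arrays were only 0.068 apart at their nearest. The SCAPER response was -0.47 (1.38-fold lower, SE 0.11) in Ad-GFP cells and 0.47 (1.39-fold higher, SE 0.11) in Ad-BRG1 cells. The SCAPER probe was not far above background, with a detection p of 0.0145 on its weakest array. In raw intensity, before any scaling between arrays, its treated and untreated Ad-BRG1 arrays overlapped. Without background correction the Ad-BRG1 response of SCAPER was 0.20.

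**Figure D2:**
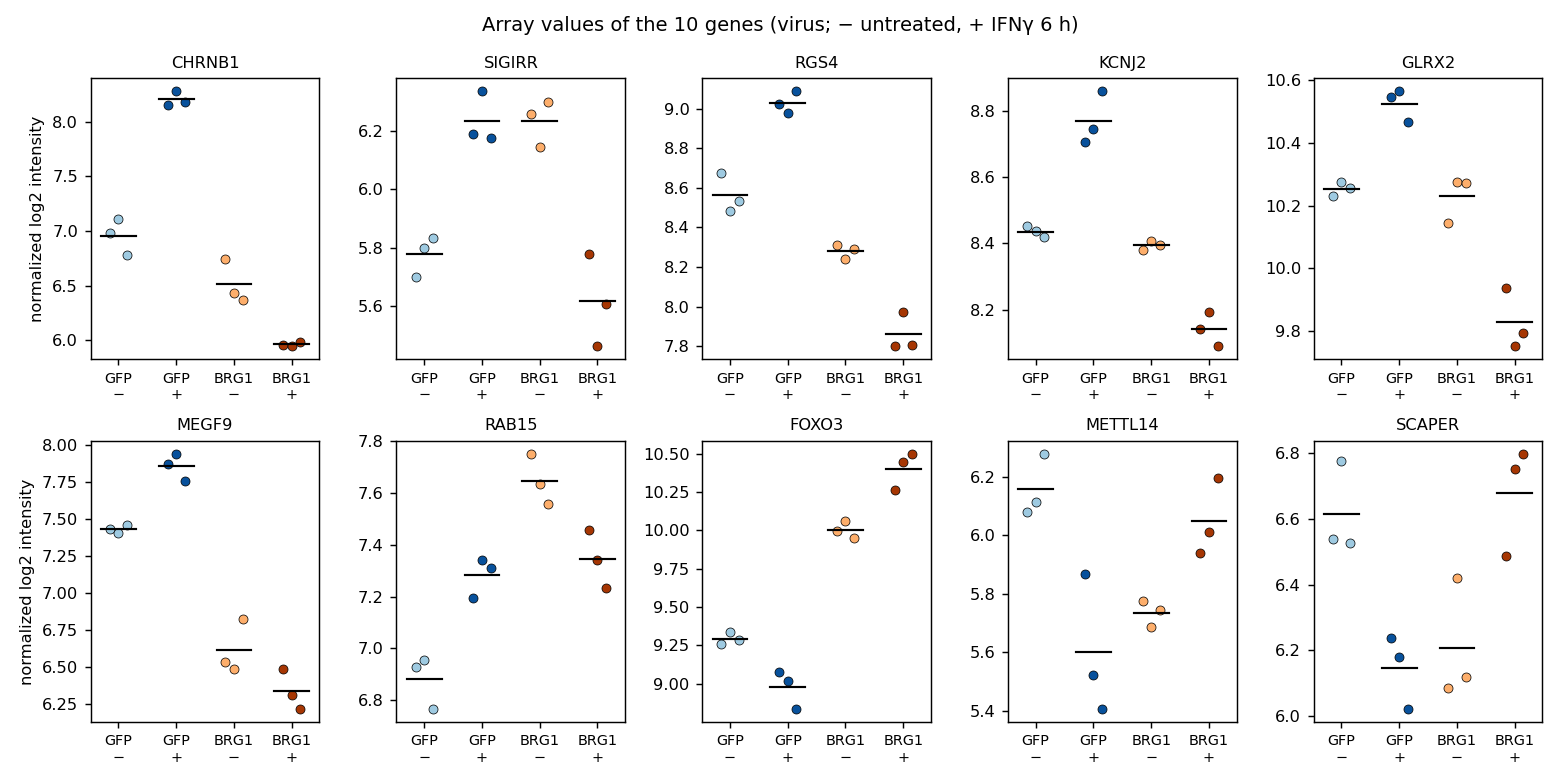
Normalized log2 intensity (y axis, a separate scale for each gene) of the 10 genes on each of the 12 arrays, by virus and IFNγ treatment; points are arrays and bars are group means of 3. In every panel the 2 Ad-GFP groups are apart in one direction and the 2 Ad-BRG1 groups in the other, with MEGF9 and SCAPER nearly touching in Ad-BRG1 cells.

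In 7 of the 10 genes a single probe carries the result. The other 3 had 3 probes each. For SIGIRR the other probes were above background on 5 and 0 of 12 arrays, and for FOXO3 on 1 and 0, so they have no say on the pattern. GLRX2 is the 1 gene with a second well-measured probe, annotated to another of its transcripts, and this probe did not show the opposite responses. The second GLRX2 probe read 9.13, 9.07 and 9.15 in untreated and 9.04, 9.05 and 9.03 in IFNγ-treated Ad-GFP cells. In Ad-BRG1 cells it read 8.54, 8.73 and 8.64 untreated and 8.34, 8.41 and 8.52 with IFNγ. On this probe both viruses had lower means with IFNγ, by -0.08 in Ad-GFP and -0.21 in Ad-BRG1 cells, and all 6 Ad-BRG1 arrays were below all 6 Ad-GFP arrays. The opposite responses of GLRX2 therefore rest on its brightest probe alone, and with the mean of its probes the Ad-GFP response was 0.10.

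**Figure D3:**
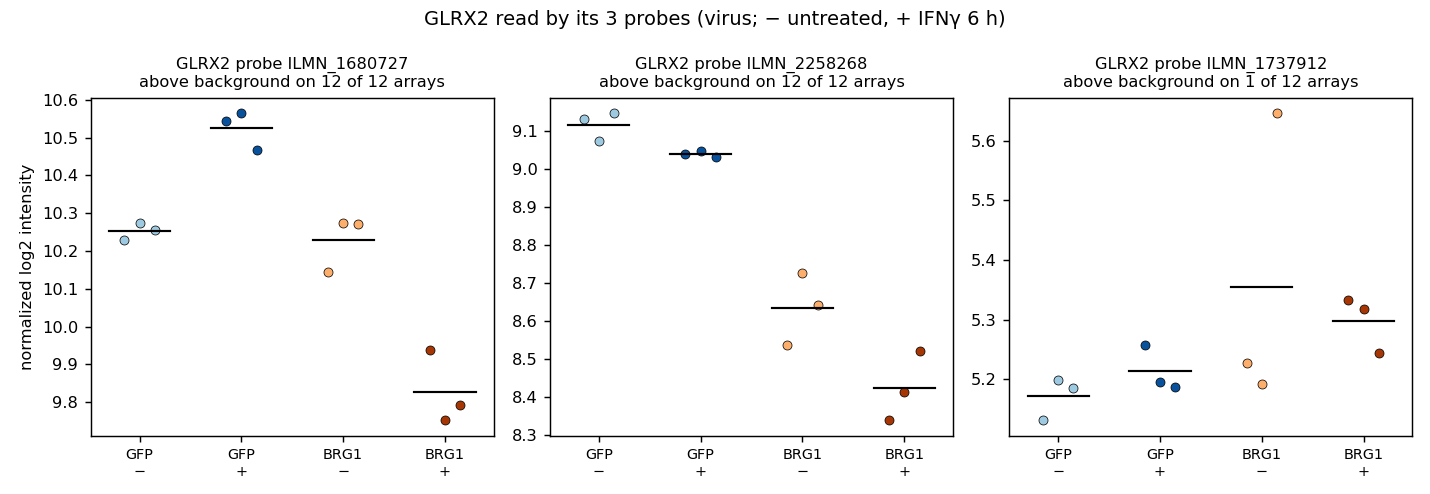
Normalized log2 intensity (y axis, a separate scale for each probe) of GLRX2 on its 3 probes, by virus and IFNγ treatment; points are arrays and bars are group means of 3. The brightest probe has responses of 0.27 and -0.40, the second probe -0.08 and -0.21, and the third was above background on 1 array.

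A comparison that the choice of genes did not use is the mean difference between viruses, the 6 Ad-BRG1 arrays against the 6 Ad-GFP arrays with both treatments weighted equally. In this balanced design it is orthogonal to both IFNγ responses, though it shares their estimate of the spread. FOXO3 was 2.09-fold higher with BRG1 (log2 difference 1.07, SE 0.06, limma adjusted p = 4.64e-09) and RAB15 1.33-fold higher (0.41, SE 0.06, adjusted p = 3.69e-05). CHRNB1 was 2.54-fold lower (-1.34, SE 0.07, adjusted p = 5.54e-09), MEGF9 2.25-fold lower (-1.17, adjusted p = 1.10e-08) and RGS4 1.65-fold lower (-0.73, adjusted p = 5.89e-08). GLRX2 and KCNJ2 were lower by less, at -0.36 (adjusted p = 2.12e-05) and -0.34 (adjusted p = 1.41e-05). For SIGIRR, METTL14 and SCAPER the mean difference was -0.08 (95% interval -0.21 to 0.05), 0.01 (-0.16 to 0.18) and 0.06 (-0.11 to 0.24), with limma adjusted p of 0.260, 0.888 and 0.505. In all, limma called 7 of the 10 genes, 2 higher and 5 lower with BRG1, beside 68.8% of all genes tested (31.8% higher and 36.9% lower), so that being called here is nothing particular to these genes. CHRNB1, RGS4, FOXO3, KCNJ2 and MEGF9 did not overlap between the 6 arrays of each virus, which is 5 of 10 beside 39.5% of all genes. Some genes listed as markers of other cell types also moved with the virus, as did 68.8% of all genes tested. Limma called 1 of 1 tested leukocyte marker (CD68), 1 of 2 endothelial markers and 1 of 1 epithelial marker (KRT18) higher with BRG1. For mesenchymal markers it was 3 of 4, and 0 markers of these lists were called lower. Only 2 of the 4 mesenchymal markers were above background in every group, and 1 of these 2 was called higher. COL1A1 and PDGFRB were above background on 6 arrays each, so their differences depend on the background elsewhere. Of 3 tested adrenocortical genes, 1 was called higher and 1 lower. CD3E, CDH5, KDR, CDH1, KRT8, KRT19 and COL1A2 were above background on 0 arrays. PTPRC and CD14 were above background on 1 array each, FAP on 2, and LYZ, VWF and EPCAM on 3 each. No presence of other cell types is read from the few markers called. The part of all these markers in the values of the 10 genes was not tested.

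Split by treatment, the virus difference of each gene follows from the 2 responses and is given as values only. With IFNγ CHRNB1 was 4.73-fold lower with BRG1 (-2.24), against -0.44 in untreated cells. Its probe was not far above background on the Ad-BRG1 arrays with IFNγ, with a detection p of 0.0184 to 0.0237, so this fold depends on the processing. In the authors' average-normalized values the IFNγ-treated means were 406 in Ad-GFP and 187 in Ad-BRG1 cells. The Ad-BRG1 response of CHRNB1 was -0.16 there and was not called. MEGF9 went from -0.82 untreated to -1.52 with IFNγ, RGS4 from -0.28 to -1.17, and FOXO3 from 0.71 to 1.42. In these 4 genes IFNγ widened a difference that was already there. GLRX2 and KCNJ2 began near 0, at -0.02 and -0.04, and reached -0.70 and -0.63. RAB15 went the other way, from 0.76 untreated to 0.06 with IFNγ. In SIGIRR, METTL14 and SCAPER the sign of the virus difference changed, from 0.46 to -0.62 in SIGIRR, from -0.42 to 0.45 in METTL14 and from -0.41 to 0.53 in SCAPER.

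**Figure D4:**
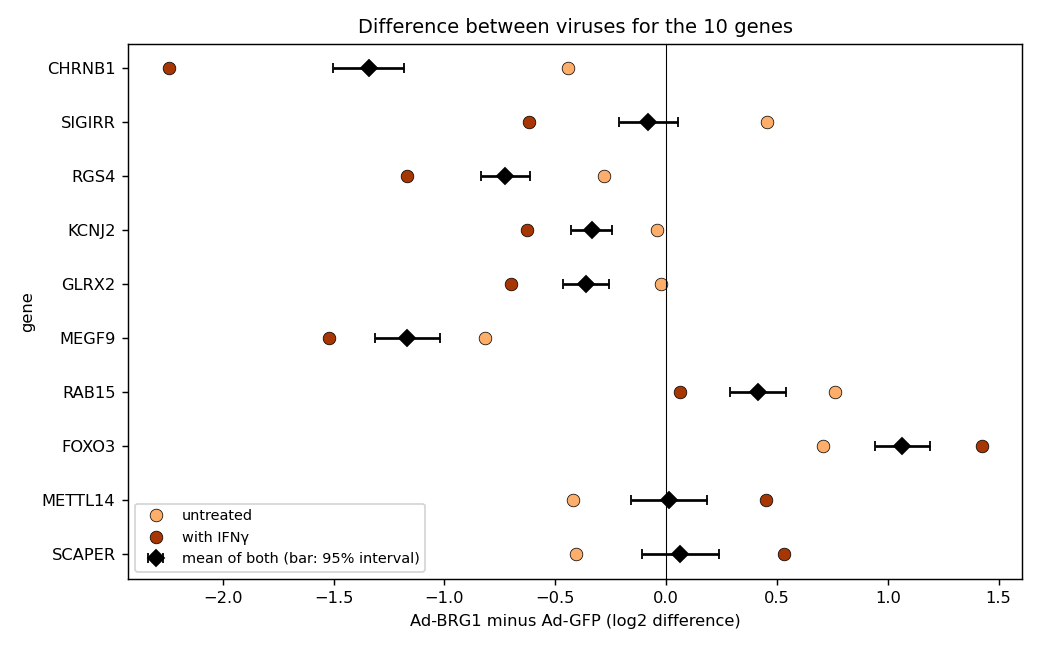
Difference between Ad-BRG1 and Ad-GFP cells (x axis, log2) for each of the 10 genes, in untreated cells, with IFNγ and as the mean of both with its 95% interval. CHRNB1 and MEGF9 lie left of 0 throughout and FOXO3 right of it, while SIGIRR, METTL14 and SCAPER lie on both sides of 0 with a mean near it.

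The size of these responses depends on the processing. Without background correction, 8 of the 10 Ad-GFP responses and 8 of the 10 Ad-BRG1 responses moved by more than the spread between replicates. Scaling to the median in place of quantiles, which keeps the background correction, moved 5 of the 10 Ad-BRG1 responses by as much: RGS4 from -0.42 to -0.60, FOXO3 from 0.40 to 0.20, KCNJ2 from -0.25 to -0.43, GLRX2 from -0.40 to -0.61 and RAB15 from -0.30 to -0.46. Median raw intensity over all probes, most of which were not above background, was 137.9 to 147 on the 6 untreated arrays and 129 to 133 on the 6 treated arrays, and the part of this shift in the responses was not tested. The 2 responses of each gene kept opposite signs under every alternative setting in which the gene was tested, 20 or 21 of them per gene. The genes were chosen by these signs on the same arrays. A stricter or absent detection filter, only the groups compared and the replicate block left the fitted responses unchanged. Nothing is therefore read from the kept signs. The calls were less even. Both responses stayed called in 21 of 21 settings for RGS4, 20 of 21 for KCNJ2, 19 of 20 for CHRNB1 and 18 of 20 for SIGIRR. For RAB15 it was 15 of 21 and for SCAPER 11 of 20. FOXO3 and GLRX2 kept both calls in only 7 of 21, METTL14 in 5 of 20 and MEGF9 in 4 of 20. These calls are on the contrasts and arrays by which the genes were chosen, which favours them. The counts describe only how far a call depends on the processing and are not a test of the responses. Under the authors' average normalization, with no background correction, CHRNB1 read a mean of 237 untreated and 406 with IFNγ in Ad-GFP cells and 209 and 187 in Ad-BRG1 cells, in linear intensity units. In those values 9 of the 10 genes did not overlap between treated and untreated arrays in both viruses, beside 11.8% of all genes, where the responses may run in either direction. These are the same arrays on which the genes were chosen, and the choice favours such separation, so nothing is read from the 9.

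**Figure D5:**
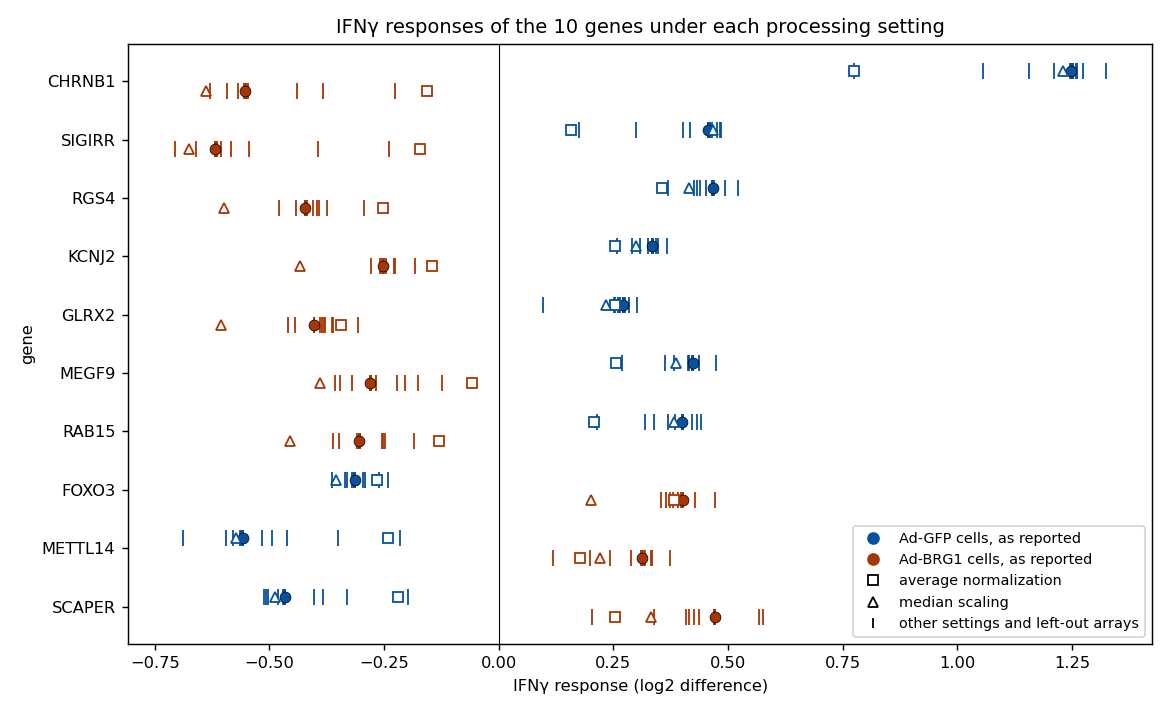
IFNγ response (x axis, log2 difference) of the 10 genes in Ad-GFP cells (blue) and Ad-BRG1 cells (brown) as reported and under each alternative setting. Blue and brown marks stay on opposite sides of 0 for every gene, and the mark nearest to 0 is that of MEGF9 in Ad-BRG1 cells with average normalization (-0.06).

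All 10 genes had a limma adjusted p under 0.05 in both responses. The 3 other genes named at the end of this paragraph did too, so this threshold alone did not set the choice. Just inside the threshold, taking the larger of each gene's 2 adjusted p-values, lay FOXO3, METTL14 and GLRX2. Just outside lay S1PR1, a sphingosine 1-phosphate receptor, with responses of 0.37 and -0.25 in Ad-GFP and Ad-BRG1 cells, the clock factor BMAL1 with -0.33 and 0.37, KTI12 with 0.31 and -0.22 and the olfactory receptor gene OR51T1 with 0.30 and -0.27. These are of the same size as the responses of KCNJ2, GLRX2 and MEGF9. The 3 other genes called in opposite directions were FYCO1, an adaptor of autophagosome transport (0.28 and -0.24), the small nucleolar RNA gene SNORA33 (0.39 and -0.29) and PDCL3P4 (0.39 and -0.32), a pseudogene whose probe may also read its parent gene.

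For each of the 10 genes, the gene outside the 10 with the highest Pearson correlation over the 12 arrays was found, as a description, since the arrays fall into the same 4 groups for every gene. FOXO3 was most like IFT25, an intraflagellar transport protein (r = 0.993), and MEGF9 most like ETF1, the translation termination factor (r = 0.987). RAB15 was closest to the homeobox repressor TGIF1 (0.972), RGS4 to TCEAL1 (0.961), GLRX2 to the signal peptidase subunit SEC11C (0.956), CHRNB1 to NUDCD2 (0.955) and KCNJ2 to the splicing factor SRSF1 (0.948). The lowest matches were SIGIRR with ZBTB25 (0.916), SCAPER with USP39 (0.867) and METTL14 with the actin regulator ENAH (0.854). The matched genes had responses of opposite sign too, but smaller ones, such as 0.28 and -0.14 for NUDCD2 and -0.16 and 0.22 for IFT25.

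Relatives of the 10 genes were then counted in 10 lists of 236 genes, of which 148 were tested. Limma called 0 of the 148 in opposite directions, beside 0.126% of all genes. At an unadjusted p under 0.05 in both responses there were 4, KLF2, RAB1B, RAB8B and RAB31. The share of all genes at an unadjusted p was not counted. Nothing is therefore read from these 4 or from the unadjusted counts of single lists below. Limma called 7 of the 148 higher and 1 lower in the IFNγ response of Ad-GFP cells, which is 5.41% beside 4.07% of all genes. In Ad-BRG1 cells 19 were higher and 33 lower, 35.1% beside 32.7%. The median response of the 148 was -0.0045 in Ad-GFP and -0.08 in Ad-BRG1 cells, against -0.02 and -0.04 over all genes. The shares called by limma in each response are near those of all genes. Of the 10333 genes tested, 320 were called higher and 101 lower in Ad-GFP cells. In Ad-BRG1 cells 1355 were called higher and 2024 lower, so the counts of single lists below are no trait of those families.

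Of 9 tested nicotinic receptor and agrin pathway genes, relatives of CHRNB1, limma called 0 in Ad-GFP cells (1 at an unadjusted p under 0.05) and 2 fell with IFNγ in Ad-BRG1 cells. These were AGRN, the synapse organizer agrin (-0.34, limma adjusted p = 0.0260), and the receptor subunit CHRNA9 (-0.50, adjusted p = 0.0143), which was not above background in Ad-GFP cells. Of the 8 that were above background on at least 1 array of each of the 4 groups, 6 were called higher with BRG1 and 0 lower. Among them were AGRN (2.19-fold) and CHRNA5 (1.38-fold). Over all genes tested 31.8% were called higher and 36.9% lower, which also counts genes not above background in every group. Of 4 tested inward rectifier genes besides KCNJ2, KCNJ4 fell with IFNγ in Ad-BRG1 cells (-0.55, adjusted p = 0.00613) and read 5.30 and 5.35 in the Ad-GFP groups. Of 8 MEGF9-like membrane proteins, 3 fell in Ad-BRG1 cells, led by the cadherin CELSR2 (-0.64, adjusted p = 0.000749), whose response in Ad-GFP cells was -0.03.

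Around SIGIRR, MYD88, the adaptor through which IL-1 and most Toll-like receptors signal, rose with IFNγ in both viruses, by 0.60 in Ad-GFP cells (limma adjusted p = 0.00108) and 0.48 in Ad-BRG1 cells (0.00190). Of the 9 tested genes of that list, 2 rose and 4 fell in Ad-BRG1 cells, TRAF6 (-0.42) and TIRAP (-0.34) among the latter. Of 7 tested RGS genes besides RGS4, limma called 0 in Ad-GFP cells (2 at an unadjusted p under 0.05), and RGS19 (-0.40, adjusted p = 0.00368) and RGS20 (-0.30, adjusted p = 0.0274) fell in Ad-BRG1 cells. RGS19 was also 2.01-fold lower with BRG1, while RGS10 was 1.44-fold higher.

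Among FOXO factors and known FOXO targets, 2 of 19 rose in Ad-GFP cells and 3 rose and 2 fell in Ad-BRG1 cells. BCL6, a transcriptional repressor, rose 8.25-fold in Ad-GFP and 4.48-fold in Ad-BRG1 cells, and SOD2, the mitochondrial superoxide dismutase, 1.29-fold and 1.65-fold. Of the 18 above background in all 4 groups, 11 were called higher with BRG1 and 2 lower, beside 31.8% and 36.9% of all genes tested. The shares of all genes also count genes not above background in every group, so the 2 sets are not filtered alike. Among the genes called higher were the growth arrest gene GADD45A (8.41-fold higher, log2 difference 3.07, limma adjusted p = 1.21e-13) and FOXO4 (2.81-fold higher). Of 18 tested glutaredoxin, thioredoxin and glutathione genes, 1 rose in Ad-GFP cells, and 2 rose and 3 fell in Ad-BRG1 cells. GCLM, the modifier subunit of glutamate-cysteine ligase, rose with IFNγ in both viruses (0.37 and 0.92). GLRX, the cytosolic glutaredoxin, rose in Ad-BRG1 cells (0.64, adjusted p = 0.00392), and SRXN1, which reduces oxidized peroxiredoxins, fell there (-0.27, limma adjusted p = 0.0174).

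Of 42 tested RAB GTPases, 2 rose and 1 fell in Ad-GFP cells, and 9 rose and 8 fell in Ad-BRG1 cells. RAB27A, which tethers secretory vesicles, rose 2.05-fold and 1.96-fold with IFNγ, while RAB26 fell in both (-0.53 and -0.81). Of 19 tested m6A writers, erasers and readers, limma called 0 in Ad-GFP cells (2 at an unadjusted p under 0.05), and 1 rose and 5 fell in Ad-BRG1 cells, among the latter the demethylase FTO (-0.51, limma adjusted p = 0.00888) and the reader IGF2BP2 (-0.47, adjusted p = 0.0138). Of 14 tested cyclin A, cyclin E and CDK2 genes, the list drawn up for SCAPER, 1 rose in Ad-GFP cells, and 2 rose and 3 fell in Ad-BRG1 cells. The CDK inhibitor CDKN1A rose 2.02-fold in Ad-GFP cells and 1.42-fold in Ad-BRG1 cells and was 9.72-fold higher with BRG1. CDKN1C, another CDK inhibitor, fell in Ad-BRG1 cells (-0.74, limma adjusted p = 0.000638) and was not above background in Ad-GFP cells. In the mean difference between viruses, 3 of the 13 genes above background in all 4 groups were higher with BRG1 and 5 lower, cyclin E1 (CCNE1, 1.64-fold lower) among the latter.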

How the data were processed

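RNA of 12 SW-13 samples in 4 groups of 3 was read on 1-colour Illumina Human-WG6 arrays. The deposited values are linear probe intensity from BeadStudio (version not stated), not normalized, and a detection p-value from the authors stands beside each value. A second deposited set of intensity values was average-normalized by the authors, 1 constant per array between 0.924 and 1.14, and served as an alternative. Of 48803 probes, 27578 carried 1 symbol of the array annotation, 13 several and 21212 none.

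Intensities were processed with neqc of limma 3.58.1 in R 4.3.3 (offset 16), which infers the negative controls from detection p. Probes above background (detection p under 0.05) throughout at least 1 group entered, and each gene was read by its brightest probe, giving 10333 genes. Limma (lmFit, eBayes, two-sided) fitted the means of the 4 groups on the 12 arrays together. Calls were made under 0.05 after Benjamini-Hochberg adjustment over all genes. The SE belongs to the log2 difference. The number of arrays limits the precision.

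The 10 genes, the gene lists and the tests were chosen with earlier results of these data known. Named were the 10 genes with every probe, the most similar gene for each, at most 3 called genes with the largest change per list and contrast, the other genes called in opposite directions, IRF1 and SMARCA4. Leukocyte, endothelial, epithelial and mesenchymal markers were above background on all 12 arrays for 1 of 5 (CD68), 2 of 5, 1 of 5 (KRT18) and 2 of 6 (VIM, THY1) genes on the array. Chip and scan order are not given in the sources used here. Alternatives were average normalization, no background correction, median scaling, an offset of 50, no detection filter, a detection p under 0.01 on all arrays, the mean of all probes, only the groups compared, replicate number as a block, and each array left out. Plots used matplotlib 3.10.9 under Python 3.11.15.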

Additional observations from a re-analysis of the deposited data

Results flagged for a closer look

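The 10 genes stand out because their IFNγ responses differ between the viruses, which is what they were chosen for, so no test of the difference is given. Taken as the Ad-BRG1 response less the Ad-GFP response, the difference was -1.80 for CHRNB1, -1.07 for SIGIRR, -0.89 for RGS4, -0.59 for KCNJ2, -0.67 for GLRX2, -0.70 for MEGF9 and -0.70 for RAB15 on the log2 scale. It was 0.72 for FOXO3, 0.87 for METTL14 and 0.94 for SCAPER.

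Among their relatives, which were not chosen for this difference, limma called an IFNγ response that differed between viruses for 12 of 148 genes (4 with a higher and 8 with a lower response in Ad-BRG1 cells, 8.11% beside 8.15% of all genes). The difference was 0.56 for GCLM (adjusted p = 0.0105), 0.59 for RAB8B (0.0144), 0.39 for RAB31 (0.0190) and 0.36 for SOD2 (0.0314). RAB8B and RAB31 had responses of -0.21 and -0.14 in Ad-GFP cells and 0.38 and 0.24 in Ad-BRG1 cells. The difference was -0.88 for BCL6 (adjusted p = 0.00147), -0.61 for CELSR2 (0.0261), -0.51 for MNAT1 (0.0331), -0.61 for RAB36 (0.0396), -0.41 for KLF2 (0.0409) and -0.51 for CDKN1A (0.0461). It was -0.84 for CDKN1C (0.00894), a CDK inhibitor gene that was not above background in either Ad-GFP group, so this value depends on the background there. MNAT1, a subunit of the CDK-activating kinase, had responses of 0.33 and -0.18, and KLF2, a zinc finger factor, of 0.20 and -0.22.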

How the results depend on the processing

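No response of the 10 genes changed sign under any of the 21 alternatives that tested it. The genes were chosen by these signs on the same arrays, so nothing is read from this. With a detection p under 0.01 on all arrays only 5 of the 10 genes were tested, and all 5 kept opposite responses. The number of the 10 called in opposite directions was 5 (of 15 genes so called in all) with average normalization, 6 (of 19) with no background correction, 6 (of 23) with median scaling, 5 (of 7) with no detection filter, 5 (of 17) with the detection p under 0.01 and 4 to 10 (of 5 to 32) with 1 array left out, 4 without untreated replicate 3 or IFNγ-treated replicate 2 of Ad-GFP cells. As reported, the 10 are 10 of 13, a number that the choice fixed. The 421 genes called in Ad-GFP cells became 274 to 459 with 1 array left out, the fewest without replicate 2 of untreated Ad-GFP cells. The 3379 genes called in Ad-BRG1 cells became 5131 with median scaling, 2183 with only the groups compared, and 2093 to 3677 with 1 array left out, the lowest without untreated replicate 1. The 7108 genes called between viruses became 6847 to 7042. The share of higher calls in Ad-BRG1 cells was 40.1%, 53.2% with average normalization and 12.96% with median scaling, which moved the median response of all genes there from -0.04 to -0.21. Relative to that median, the Ad-BRG1 responses of the 10 genes ran from -0.58 to 0.51 as reported and from -0.47 to 0.54 with median scaling, with the same signs. SCAPER was called higher with BRG1 with average normalization (0.10, adjusted p = 0.0436). With the replicate number as a block, 6 of the 10 genes (of 16) were called in opposite directions, along with 3584 genes in the Ad-BRG1 response and 422 in the other. Same-numbered untreated and treated arrays correlated at -0.06 to 0.15 (Ad-GFP) and 0.05 to 0.44 (Ad-BRG1). Between viruses they correlated at 0.10 to 0.28 untreated and -0.15 to 0.14 with IFNγ. Some arrays correlated best with their own number, such as replicate 3 in Ad-BRG1 cells (0.44 against 0.02), and others did not. Whether the numbers are pairs is thus not settled, and they were not taken as such. The cause of these changes was not tested. With 3 arrays per group, and SIGIRR and METTL14 barely above background, the size of small responses is poorly fixed. CHRNB1, MEGF9 and SCAPER also missed a detection p of 0.01 on some arrays.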
